A study of Mus musculus with 8 samples.

Results

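S100a4, S100a8, S100a9 and S100a11, which encode small calcium-binding proteins of the S100 family, and Crip1, which encodes a small LIM-domain zinc-binding protein, were followed across CD11b+ cells sorted from the mouse conjunctiva. They were taken by name as 5 of the 754 genes of a NanoString nCounter panel for mouse myeloid and innate immunity. The panel holds 5 genes whose name starts with S100, the fifth being S100a10, and Crip1 is its only Crip gene. S100a10 is given beside the 5 genes for comparison.

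The 8 samples came from female C57BL/6J mice, labelled as 10 weeks old, either left unstressed (NS) or put through 5 days of desiccating stress (DS5), a model of dry eye that pairs scopolamine given in the water, to suppress tears, with a fan-driven dry draft. CD45+CD11b+ cells that were negative for NK1.1, Ly6G, CD3e and B220 were sorted into 4 populations. They are named here MHCII+ cells, monocytes (MHCII-CD64+Ly6C-high), Ly6C-inter cells (MHCII-CD64+Ly6C-inter) and Ly6C-low cells (MHCII-CD64+Ly6C-low). Each population and condition was 1 sample pooled from both conjunctivae of many mice. There were no replicates, so no p-value could be computed, and the intervals below are exact 95% Clopper-Pearson intervals that cover counting error only. In pooled sorted cells, fewer cells that carry a transcript and less of it per cell cannot be told apart.

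S100 proteins bind calcium through EF-hand motifs and act inside the cell on partner proteins or outside it as alarm signals. S100a8 and S100a9 pair to form calprotectin, an abundant protein of neutrophils and of inflammatory monocytes that is known to signal through TLR4. S100a4 binds non-muscle myosin and is linked to cell motility, S100a11 binds annexin A1, and S100a10 binds annexin A2 at the plasma membrane. Crip1 belongs to the family of cysteine-rich intestinal proteins.

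The S100 genes lie on chromosome 3, and Crip1 lies on chromosome 12. In the RefSeq annotation no gene separates S100a8 from S100a9, and 1 gene, which does not code for protein, lies between S100a11 and S100a10, while 83 genes, 56 of them protein-coding, lie between S100a9 and S100a11. As described below, S100a9 was above background in 2 samples and S100a8 in none. Since probes differ in efficiency, this does not compare the levels of the 2 genes. In 1 sample the shares of S100a11 and S100a4 lay at opposite ends of their ranges. Shown here are the start regions of the 4 genes with a count above background in at least 1 sample. Each runs from 250 bases before the annotated gene start to the 20th base after it. They are in GRCm38.p6 from RefSeq and written 5′ to 3′ on the strand of the gene. The S100a4 window is chr3:90603520-90603789 on the plus strand. The S100a9 window is chr3:90695702-90695971 on the minus strand. The S100a11 window is chr3:93520246-93520515 on the plus strand. The Crip1 window is chr12:113151762-113152031 on the plus strand. Capitals mark 3 motifs that were searched on both strands. The core of the TATA box was searched as TATAAA. The GC box, which Sp1 factors bind, was searched as GGGCGG. The AP-1 site was searched as TGANTCA.
S100a4: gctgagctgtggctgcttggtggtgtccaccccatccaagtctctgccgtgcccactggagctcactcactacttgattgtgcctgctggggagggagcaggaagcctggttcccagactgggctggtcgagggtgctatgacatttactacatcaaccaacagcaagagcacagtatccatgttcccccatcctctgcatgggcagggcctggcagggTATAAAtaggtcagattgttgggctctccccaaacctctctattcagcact
S100a9: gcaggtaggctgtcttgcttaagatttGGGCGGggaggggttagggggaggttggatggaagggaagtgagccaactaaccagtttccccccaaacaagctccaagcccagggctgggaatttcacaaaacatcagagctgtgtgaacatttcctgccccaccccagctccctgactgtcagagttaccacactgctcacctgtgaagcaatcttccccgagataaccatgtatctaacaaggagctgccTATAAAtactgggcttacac
S100a11: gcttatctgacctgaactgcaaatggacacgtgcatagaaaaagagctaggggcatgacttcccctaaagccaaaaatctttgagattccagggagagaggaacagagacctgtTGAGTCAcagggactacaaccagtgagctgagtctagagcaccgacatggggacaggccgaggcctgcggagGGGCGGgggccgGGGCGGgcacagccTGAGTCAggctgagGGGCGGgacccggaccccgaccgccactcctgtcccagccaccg
Crip1: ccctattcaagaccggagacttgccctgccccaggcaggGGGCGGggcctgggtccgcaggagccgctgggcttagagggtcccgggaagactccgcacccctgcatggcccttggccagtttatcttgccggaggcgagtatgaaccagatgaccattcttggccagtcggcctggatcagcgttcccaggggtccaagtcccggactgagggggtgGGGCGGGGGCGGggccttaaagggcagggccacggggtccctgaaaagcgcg

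S100a4 holds 1 TATAAA, which begins 31 bases before the start, and neither of the other motifs. S100a9 holds 1 TATAAA at the annotated start itself and 1 GGGCGG that begins 223 bases before it. S100a11 has no TATAAA but 3 GGGCGG, the nearest beginning 24 bases before the start, and 2 TGANTCA, the nearest beginning 38 bases before it. Crip1 has 3 GGGCGG, the nearest beginning 26 bases before the start, and no TATAAA or TGANTCA. S100a8, which was not above background in any sample, has 1 TATAAA that begins 30 bases before its start. Among 32851 RefSeq promoter windows of the same length, 12.9% hold TATAAA, 34.1% hold GGGCGG and 7.23% hold TGANTCA. These letters describe the windows and were not tested against the counts.

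Depth differed widely between samples. The counts over all genes summed to between 2728 in NS monocytes and 39677 in NS MHCII+ cells, a 14.5-fold range, while the positive control probes differed by 1.37-fold. A count was called above background when it exceeded a limit set in its own sample by the 8 negative control probes, their mean plus 2 SD, which came to 11.2 to 23.0 counts, and 24 to 291 genes passed it. Counts were scaled to equal totals before ratios were taken, and a level is given as the raw count or as the share of all gene counts of a sample. Since probes differ in efficiency, levels of different genes were not ranked against each other. The gate on MHCII was mirrored by MHC class II genes (H2-Aa, H2-Ab1, H2-Eb1 and Cd74), which made up 29.6% of counts in NS MHCII+ cells, 29.5% in DS5 MHCII+ cells and 0.683 to 2.21% in the others. For the other gates the panel gave little. Fcgr1, which encodes CD64, gave 3 to 9 counts in the 6 MHCII- samples, below their limits, and Ly6c1 gave 7 to 16 counts in 5 of these samples and 583 in DS5 Ly6C-inter cells. Among the other monocyte markers, Chil3 gave 16 counts in NS and 70 in DS5 monocytes and 3 to 8 in the other MHCII- samples, and Ccr2 gave 12 and 15 against 1 to 7, with 202 and 190 in MHCII+ cells.

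That DS5 Ly6C-inter sample stood apart from the other 7. Emp1, a membrane protein gene found in many epithelial cells, gave 1436 counts there and 6 to 97 elsewhere. Pglyrp1, a peptidoglycan-recognition gene of granulocytes and epithelia, gave 196 counts against 1 to 7. Ceacam1, an adhesion molecule gene, gave 115 against 2 to 10, and Cd274, which encodes PD-L1, gave 154 against 1 to 9. Results that rest on this sample are therefore given with and without it.

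S100a11 and Crip1 were above background in all 8 samples, S100a4 in 7, S100a9 in 2 and S100a8 in none. S100a11 was far higher in DS5 Ly6C-inter cells than anywhere else, and Crip1 was highest in MHCII+ cells of both conditions. S100a4 was low in Ly6C-inter cells of both conditions, and S100a9 was above background there and nowhere else. The plot of shares by sample shows these patterns.

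**Figure D1:**
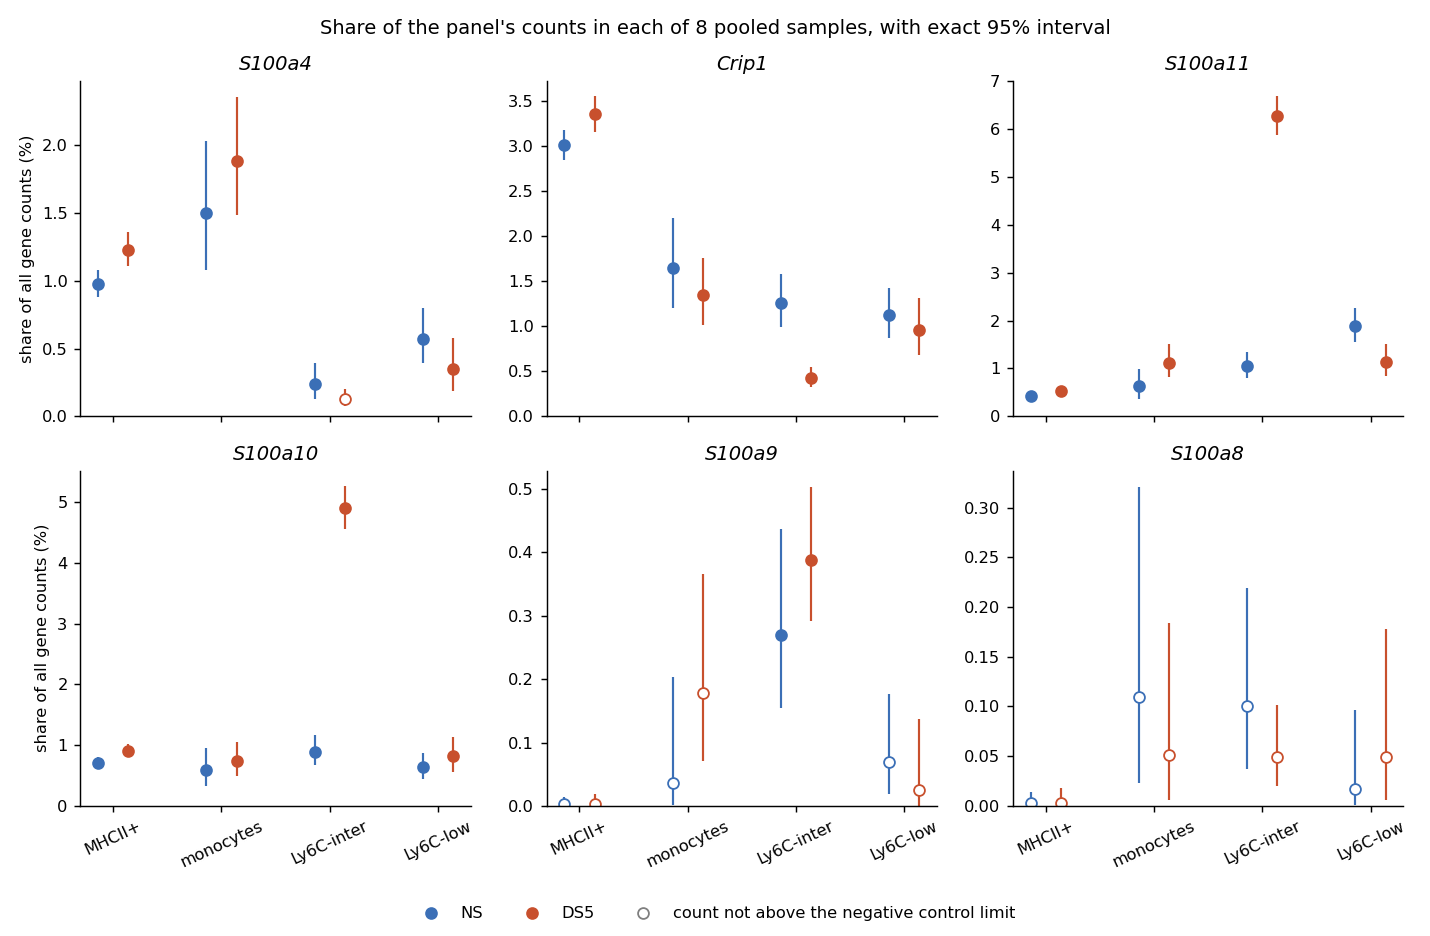
Share of all gene counts (percent) of the 5 genes and of S100a10 in the 4 sorted populations of NS and DS5 mice. Each point is 1 pooled sample with its exact 95% counting interval. Open symbols are counts not above the negative control limit. S100a11 and S100a10 reach 6.27% and 4.90% in DS5 Ly6C-inter cells, Crip1 is highest in both MHCII+ samples, and all S100a8 symbols are open.

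For S100a11, the NS samples gave 165 counts in MHCII+ cells, 17 in monocytes, and 62 and 109 in the Ly6C-inter and Ly6C-low cells. The DS5 samples gave 158, 44, 891 and 46 counts in the same order. As shares of all gene counts these were 0.416, 0.623, 1.04 and 1.88% in NS and 0.521, 1.12, 6.27 and 1.13% in DS5. DS5 Ly6C-inter cells thus held the highest share, 6.27% (5.88 to 6.69%), and NS MHCII+ cells the lowest, a 15.1-fold range that was 4.52-fold without the DS5 Ly6C-inter sample. In the order of the 8 shares, 3 of the 7 steps between neighbours exceeded counting error: DS5 Ly6C-inter over NS Ly6C-low cells (3.34-fold), NS over DS5 Ly6C-low cells (1.66-fold) and, barely, DS5 over NS MHCII+ cells (1.25-fold). The last of these changed direction without scaling and with positive controls. DS5 Ly6C-inter cells also came first with each of the 4 other scalings tried (by reference genes, by positive controls, by Ppia with Rpl19, or none), 3.56 to 5.40 times the next sample. A pseudogene, S100a11-ps, is listed in RefSeq, and whether the probe also reads it is not known because the probe sequence was not used here.

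S100a10, the neighbouring gene, gave 283, 16, 53 and 37 counts in the NS samples and 274, 29, 696 and 33 in the DS5 samples, in the order given for S100a11. It too was highest in DS5 Ly6C-inter cells, where it made up 4.90% of counts, and its shares in the other 7 samples lay within a 1.54-fold range. Anxa1, which encodes the annexin that S100a11 binds, gave 75, 6, 9 and 7 counts in NS and 72, 8, 34 and 4 in DS5. The annexins and S100 partners, a list of 6 genes of which Anxa1, Anxa4 and S100a10 were measured, had a median log2 ratio of DS5 over NS in Ly6C-inter cells of 0.66, beside -0.26 over all genes. Of these, S100a10 was past 1.5, and Anxa1 was at 0.66 (-0.43 to 1.91). Anxa4, another annexin gene, was above background in the MHCII+ samples alone, with 18 and 23 counts.

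Crip1 gave 1196 counts in NS MHCII+ cells and 45 in monocytes, with 75 in Ly6C-inter and 65 in Ly6C-low cells. In DS5 it gave 1018, 53, 61 and 39 in the same order. These were 3.01, 1.65, 1.26 and 1.12% of counts in NS and 3.36, 1.35, 0.430 and 0.962% in DS5. Both MHCII+ samples lay above the 6 MHCII- samples under all 5 scalings, and DS5 Ly6C-inter cells held the lowest share, although without scaling and with positive controls DS5 Ly6C-low cells were lowest. The range was 7.81-fold, and 3.49-fold without the DS5 Ly6C-inter sample. Of the 7 steps between neighbours, 3 exceeded counting error: DS5 over NS MHCII+ cells (1.11-fold), NS MHCII+ cells over NS monocytes (1.83-fold), and DS5 Ly6C-low over DS5 Ly6C-inter cells (2.24-fold). The first and the last of these changed direction without scaling and with positive controls.

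S100a4 gave 387, 41, 14 and 33 counts in the NS samples and 373, 74, 18 and 14 in the DS5 samples, in the same order. The shares were 0.975, 1.5, 0.235 and 0.569% in NS and 1.23, 1.88, 0.127 and 0.345% in DS5. Monocytes and MHCII+ cells held the 4 highest shares and Ly6C-inter cells the 2 lowest. Without scaling and with positive controls, however, DS5 Ly6C-low cells were lowest. The 18 counts in DS5 Ly6C-inter cells did not exceed that sample's limit of 23.0. Which of monocytes and MHCII+ cells came first depended on the scaling: monocytes led at equal totals or with Ppia and Rpl19, and MHCII+ cells led in the 3 other scalings. Of the 7 steps between neighbours, those from DS5 to NS MHCII+ cells (1.26-fold) and from NS MHCII+ to NS Ly6C-low cells (1.71-fold) exceeded counting error. The step between the MHCII+ samples changed direction without scaling and with positive controls. The range was 14.9-fold, and 8.0-fold without the DS5 Ly6C-inter sample. The list of 6 myosin, actin and motility genes chosen as targets of S100a4 had no gene on the panel.

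The calprotectin genes were at or near background. S100a9 gave 1, 1, 16 and 4 counts in the NS samples and 1, 7, 55 and 1 in the DS5 samples. It was above background in NS Ly6C-inter cells, at 0.269% of counts, and in DS5 Ly6C-inter cells, at 0.387%, and these samples came second and first under all 5 scalings. S100a8 gave 1, 3, 6 and 1 counts in NS and 1, 2, 7 and 2 in DS5, so no sample held a level above background. None of the 7 steps between neighbours exceeded counting error for either gene, and since the table holds no value of 0, a count of 1 may stand for a lower value. S100a8 was not detectable at this depth in samples where S100a9 was detected.

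Markers of neutrophils, the cells best known for S100a8 and S100a9, were checked because the Ly6G antibody was meant to remove these cells. Of 17 marker genes 12 were measured, and of these Mmp9 and Il1r2 alone exceeded background in any sample. Their summed counts were 28 to 100 per sample, or 0.181 to 1.27% of counts, and in Ly6C-inter cells 0.706% (NS) and 0.704% (DS5). Ly6g gave 1 or 2 counts in every sample, Elane (neutrophil elastase) 1 to 3 and Cxcr2, a neutrophil chemokine receptor gene, 1 to 4. Il1r2, a decoy receptor gene for interleukin 1, gave 51 counts in DS5 Ly6C-inter cells and 1 to 8 elsewhere. Mmp9, a gelatinase gene, gave 41 counts in NS MHCII+ cells (0.103% of counts), where S100a9 gave 1. Its highest share, 0.336% on 20 counts, was in NS Ly6C-inter cells, and DS5 Ly6C-inter cells gave 10 counts (0.070%). Of the epithelial markers Cdh1 (E-cadherin) alone was on the panel, with 16 counts in DS5 Ly6C-inter cells, below the limit, and 1 to 5 elsewhere. The 9 measured tissue macrophage markers summed in Ly6C-inter cells to 425 counts (NS) and 431 (DS5). As shares these were 7.15% of 5948 counts (NS) and 3.04% of 14201 (DS5). The part that other cell types had in the S100a9 and S100a11 levels was not tested.

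Ratios between genes of 1 sample do not depend on how samples are scaled. The count ratio of S100a11 to S100a4 was 0.426 in NS and 0.424 in DS5 MHCII+ cells, 0.415 and 0.595 in monocytes, 4.43 and 49.5 for Ly6C-inter cells, then 3.30 and 3.29 for Ly6C-low cells. In MHCII+ cells and monocytes the ratio was thus 0.595 or less, and in Ly6C-inter and Ly6C-low cells 3.29 or more. In DS5 over NS the ratio changed 11.2-fold (5.31 to 23.5) in Ly6C-inter cells. It changed 0.994-fold (0.766 to 1.29) in MHCII+ cells, 1.43-fold (0.728 to 2.82) in monocytes and 0.995-fold (0.487 to 2.03) in Ly6C-low cells. The Ly6C-inter ratios rest on low S100a4 counts, 14 in NS and 18 in DS5. The 18 counts were not above that sample's limit of 23.0, and the intervals do not cover background.

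**Figure D2:**
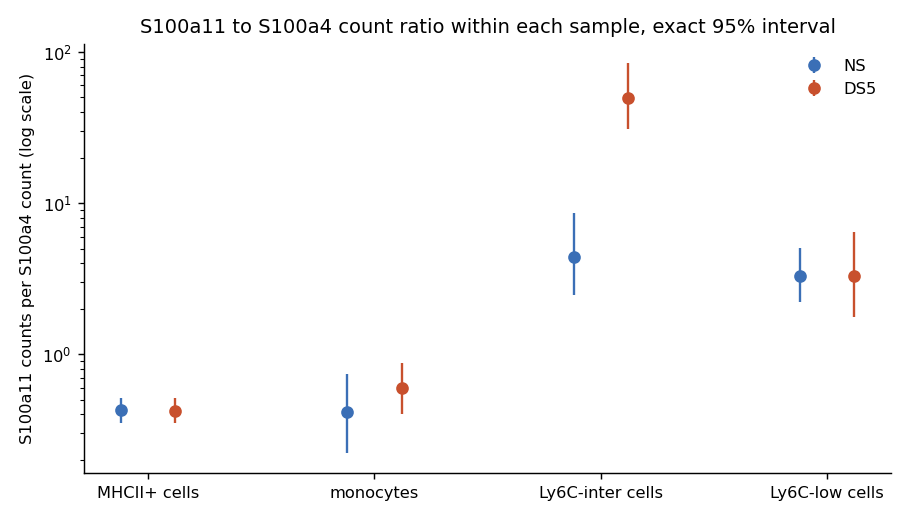
Count of S100a11 divided by the count of S100a4 in the same sample (log scale), 1 pooled sample per point, with exact 95% counting intervals. The ratio is at most 0.595 in MHCII+ cells and monocytes and at least 3.29 in Ly6C-inter and Ly6C-low cells. It reaches 49.5 (31.1 to 83.9) in DS5 Ly6C-inter cells, where S100a4, at 18 counts, was not above background.

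The ratio of Crip1 to S100a11 ran the other way, from 7.25 in NS and 6.44 in DS5 MHCII+ cells to 0.596 and 0.848 in Ly6C-low cells. In Ly6C-inter cells it was 1.21 in NS and 0.0685 in DS5, a change to 0.0566 (0.0370 to 0.0866) of the NS ratio. In monocytes it was 2.65 in NS and 1.2 in DS5, a change to 0.455 (0.229 to 0.904). S100a10 and S100a11, the neighbouring genes, kept close to 1 ratio in Ly6C-inter cells, 0.855 in NS and 0.781 in DS5, a change of 0.914-fold (0.625 to 1.34). In Ly6C-low cells, however, this ratio changed 2.11-fold (1.18 to 3.78), from 0.339 to 0.717.

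The comparison of DS5 with NS asked which genes differed after stress within each population. Of the 20 log2 ratios of the 5 genes, 4 were past 1.5, 3 higher and 1 lower in DS5. With another scaling the split was 2 higher and 1 lower (reference genes, positive controls, or Ppia and Rpl19) or 3 and 1 (no scaling), and with equal totals over the genes other than the 5 and Cd74 it was 3 and 0. The genes behind it were not the same ones. Crip1 in Ly6C-inter cells was past 1.5 in none of the 4 other scalings, where the lower gene was S100a9 in Ly6C-low cells (-2.16 to -1.57, on 1 count against 4), and the S100a8 ratio in Ly6C-low cells was not past 1.5 in any of them, while S100a9 in Ly6C-inter cells was, at 1.78, without scaling. In MHCII+ cells no member passed, where 9 genes of 754 were past 1.5 higher and 11 lower. In monocytes 1 of 5 (S100a9) was higher, where 6.37% of all genes were. In Ly6C-inter cells 1 (S100a11) was higher, where 7.29% of all genes were, and 1 (Crip1) was lower, where 13.9% were. In Ly6C-low cells 1 (S100a8) was higher, where 24.7% of all genes were. The median log2 ratio of the 5 genes was 0.15 in MHCII+ cells (0 over all genes) and 0.33 in monocytes (-0.16 over all genes). For Ly6C-inter cells it was -0.89 (-0.26), and for Ly6C-low cells -0.72 (0.52). Leaving out Ly6C-inter cells, 2 of 15 ratios were past 1.5, and both rested on counts of 7 or fewer.

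**Figure D3:**
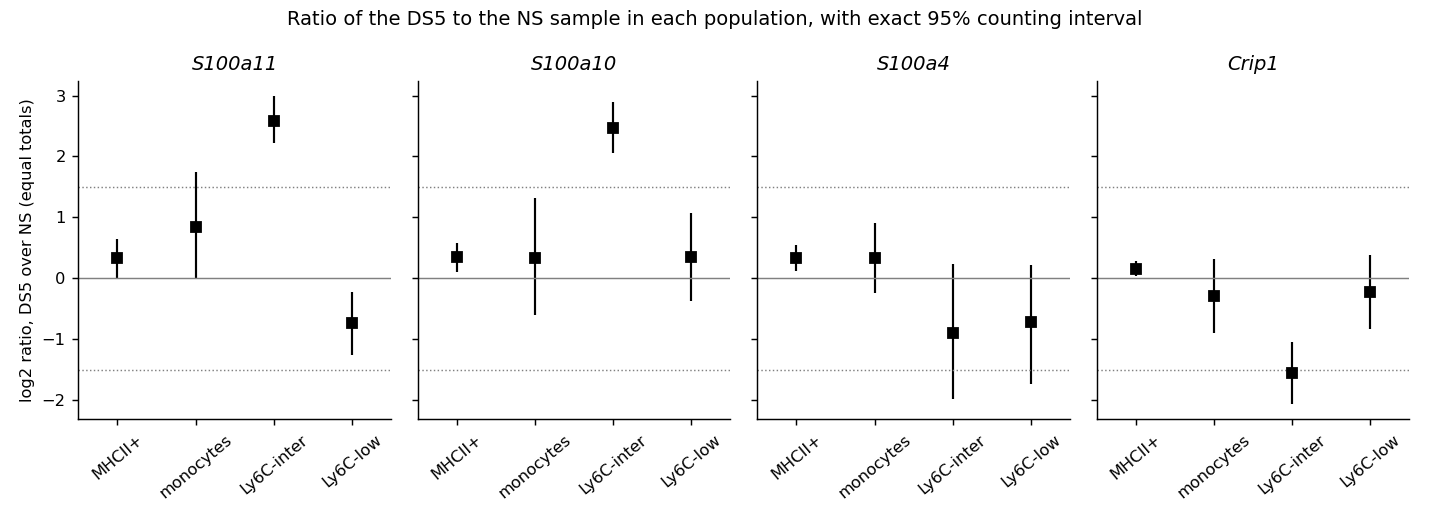
Log2 ratio of DS5 over NS at equal totals for S100a11, S100a10, S100a4 and Crip1 in each population. Each ratio is from 1 pooled sample per condition, with its exact 95% counting interval, and dotted lines lie at 1.5 and -1.5. S100a11 and S100a10 lie at 2.59 and 2.46 in Ly6C-inter cells and Crip1 at -1.55.

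In Ly6C-inter cells S100a11 was higher in DS5 by a log2 ratio of 2.59 (2.22 to 2.99), or 6.02-fold, with 891 counts against 62. The ratio was between 2.58 and 3.85 under every alternative tried. Ordered by the lower limit of the interval it was 8th of all 754 genes, and S100a10, at 2.46 (2.06 to 2.89), was 10th. By the ratio itself S100a11 was 16th and S100a10 21st. The genes before S100a11 by the lower limit were Ly6c1, Ifit1bl1, Emp1, Cd274, Pdzk1ip1, Pglyrp1 and Ceacam1. Crip1 was lower there by a log2 ratio of -1.55 (-2.07 to -1.05), with 61 counts against 75, and stayed below 0 under every alternative, from -1.68 to -0.30. It was past 1.5 under 3 of the 10, and not with reference genes (-1.29), with Ppia and Rpl19 (-0.67), with positive controls (-0.61) or without scaling (-0.30). S100a4, with 18 counts against 14, was at -0.89 (-1.98 to 0.23), and changed sign between alternatives. S100a9 was at 0.53 (-0.30 to 1.43), with 55 counts against 16. Scaling moved the median of all genes in this comparison from -0.26 at equal totals to 1.0 without scaling. Relative to that median, S100a11 was at 2.85 and Crip1 at -1.30. By construction these 2 values do not change with the scaling, so they do not show that the ratios are stable.

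In Ly6C-low cells S100a11 was lower in DS5 by a log2 ratio of -0.73 (-1.26 to -0.22), with 46 counts against 109, and from -1.43 to -0.51 under the alternatives. The differences between this ratio and those in the other 3 populations have no test here. S100a4 was at -0.72 (-1.74 to 0.22) and Crip1 at -0.22, while S100a10 was at 0.35. The higher S100a8 ratio, 1.52, rested on 2 counts against 1.

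In monocytes S100a11 was higher in DS5 by a log2 ratio of 0.85 (0.01 to 1.75), with 44 counts against 17, and from 0.66 to 1.41 under the alternatives. S100a4, with 74 counts against 41, was at 0.33 (-0.24 to 0.91), and Crip1 was at -0.29. S100a9 was at 2.28 (-0.68 to 7.78), which rested on 7 counts against 1, neither above background.

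In MHCII+ cells, the samples with the deepest counts, the ratios were small. S100a4 was at 0.33 (0.13 to 0.54), S100a11 at 0.32 (0.0008 to 0.65), S100a10 at 0.34 and Crip1 at 0.15 (0.03 to 0.28). Without scaling S100a4 was at -0.05, S100a11 at -0.06 and Crip1 at -0.23, so no direction can be given for these 3 genes in this population.

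The comparison of MHCII+ cells with each MHCII- population asked which genes mark the sorted populations. Of the 15 ratios in NS, 7 were past 2 (log2), 1 higher and 6 lower in MHCII+ cells, and of the 15 in DS5, 8 were, 2 higher and 6 lower. This split rested on the scaling. In NS it was 4 higher and 4 lower with reference genes, 7 and 3 without scaling, 7 and 2 by positive controls, and 1 and 6 by Ppia and Rpl19. In DS5 it was 5 and 4, 6 and 4, 7 and 4, and 2 and 7 in the same order, and 4 and 6 at equal totals without the 5 genes and Cd74.

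In NS, 2 of 5 genes (S100a8 and S100a9) were lower in MHCII+ cells than in monocytes, where 52.1% of all genes were. Both rested on counts below background, 1 against 3 for S100a8 and 1 in both samples for S100a9, whose ratio was 0 without scaling. Against Ly6C-inter cells 1 (S100a4) was higher, where 1.72% of all genes were, and 2 (S100a8 and S100a9) were lower, where 24.5% were. Against Ly6C-low cells 2 (S100a9 and S100a11) were lower, where 21.8% were. In DS5, 2 (S100a8 and S100a9) were lower than in monocytes, where 39.5% were. Against DS5 Ly6C-inter cells 2 (S100a4 and Crip1) were higher, where 3.18% were, and 3 (S100a8, S100a9 and S100a11) were lower, where 17.9% were. Against Ly6C-low cells 1 (S100a8) was lower, where 35.1% were. In these comparisons the median log2 ratio of all genes lay from -2.28 to -0.91, and most genes were near background in at least 1 of the samples.

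Crip1 was higher in MHCII+ cells in all 6 comparisons. The log2 ratio was 0.87 over monocytes, 1.26 over Ly6C-inter cells and 1.43 over Ly6C-low cells in NS, and 1.31, 2.97 (2.59 to 3.36) and 1.80 in DS5. It stayed above 0 in all 6 under every alternative, the lowest value being 0.07, over NS monocytes. S100a4 was higher in MHCII+ than in Ly6C-inter cells by 2.05 (1.29 to 2.94) in NS and 3.28 (2.60 to 4.05) in DS5, and over the alternatives these ratios were 2.02 to 4.93 and 2.32 to 4.83. Over Ly6C-low cells it was 0.78 in NS and 1.83 in DS5. Against monocytes S100a4 was at -0.62 in both conditions, and the sign turned with reference genes, with positive controls and without scaling.

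S100a11 was lower in MHCII+ cells in all 6 comparisons at equal totals, by -0.58, -1.33 and -2.18 in NS and -1.10, -3.59 and -1.12 in DS5, against monocytes, Ly6C-inter and Ly6C-low cells in turn. The ratio to DS5 Ly6C-inter cells stayed negative under every alternative, from -4.55 to -2.04. The other 5 changed sign: against NS Ly6C-low cells, for example, the ratio was 0.60 without scaling and 0.61 with positive controls. S100a9 was lower in MHCII+ than in Ly6C-inter cells under every alternative, with 1 count in each MHCII+ sample, and the ratio ran from -6.74 to -2.46 in NS and from -6.88 to -2.37 in DS5. The S100a8 ratios rested on 7 counts or fewer throughout.

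**Figure D4:**
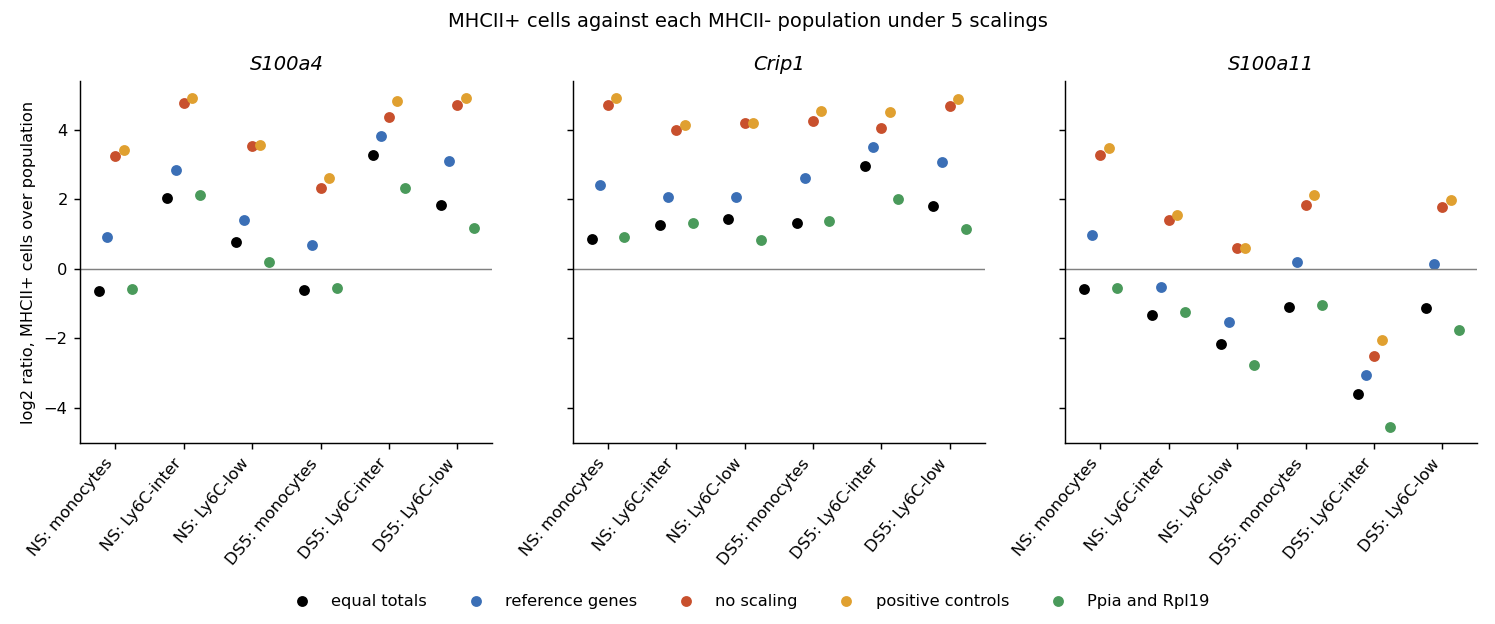
Log2 ratio of MHCII+ cells over each MHCII- population for S100a4, Crip1 and S100a11 under 5 scalings, 1 pooled sample per population and condition. All Crip1 points lie above 0, while S100a4 against monocytes and S100a11 against all but DS5 Ly6C-inter cells lie on both sides of 0.

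Genes of pathways tied to these proteins were read from lists. Of 7 genes for calprotectin receptors and the TLR4 complex, 4 were measured, Tlr4, Cd14, Myd88 and Cd36. Tlr4 gave 1 to 13 counts and was not above background in any sample. Cd14, the co-receptor of TLR4, was lower in DS5 than in NS Ly6C-inter cells by a log2 ratio of -1.63 (-2.41 to -0.86), with 27 counts against 35, and by -0.37 without scaling. Cybb, which encodes a membrane subunit of the NADPH oxidase whose assembly calprotectin is known to aid, was lower in DS5 than in NS Ly6C-inter cells by a log2 ratio of -1.98 (-2.86 to -1.13), with 20 counts against 33, and by -0.72 without scaling. All 8 cytokine genes known to be induced through TLR4 were measured. In DS5 over NS Ly6C-inter cells 1 was past 1.5 higher and 2 were past it lower, beside 7.29 and 13.9% of all genes. Of these Il1b, at -2.44 (-3.61 to -1.36) with 11 counts against 25, alone involved a count above background, and it was at -1.18 without scaling. Relative to the median of all genes, Cd14 was at -1.37, Cybb at -1.72 and Il1b at -2.18. Scaling moves a gene and that median alike, so these values are fixed by construction and do not test the scaling. In DS5 over NS Ly6C-inter cells the medians of the receptor list and of the cytokine list were both -1.22, beside -0.26 over all genes. Of the 4 receptor genes 2 were above background in each Ly6C-inter sample, and of the 8 cytokine genes 4 in NS and 3 in DS5. For MHCII+ cells, monocytes and Ly6C-low cells the receptor medians were 0.03, 0.15 and 0.71. The cytokine medians were 0.22, -0.31 and -0.17, beside 0, -0.16 and 0.52 over all genes.

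The genes whose log2 levels were most like each member over the 8 samples, among those above background in at least 4, are given as a description, since all points share the scaling and 2 conditions of 4 populations. For S100a11 these were Sqstm1, an autophagy receptor gene (Pearson r 0.98, and 0.97 without the DS5 Ly6C-inter sample), Emp1 (0.93 and 0.76) and Itgam, which encodes CD11b (0.91 and 0.71). For Crip1 they were Cd83, a maturation marker of dendritic cells (0.94 and 0.87), and the MHC class II genes H2-Aa (0.90 and 0.97) and Cd74 (0.86 and 0.95). For S100a4 they were Fn1, the fibronectin gene (0.90 and 0.84), Il1b (0.89 and 0.89) and Rpl19, a ribosomal protein gene (0.86 and 0.73). For S100a9 they were Hpgd, a prostaglandin-degrading enzyme gene (0.81 and 0.99), S100a11 (0.77 and 0.70) and Sqstm1 (0.76 and 0.66), but without scaling these were 0.29, 0.53 and 0.17 over all 8 samples. For S100a8 they were Il4ra, Tnf and Hpgd, with r of 0.93, 0.82 and 0.75 at equal totals and -0.10, -0.02 and -0.07 without scaling, so these rest on the scaling of counts below background. Between members at equal totals, S100a11 and Crip1 had r = -0.94 (-0.88 without the DS5 Ly6C-inter sample). S100a4 and S100a11 had -0.73 (-0.43), and S100a4 and Crip1 0.74 (0.51). These r values between members were not taken under another scaling, and their signs may rest on it. In raw counts, for example, NS MHCII+ cells exceeded NS monocytes for both S100a11 (165 against 17) and Crip1 (1196 against 45).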

How the data were processed

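The authors extracted RNA from sorted, pooled cells, hybridized it to the panel and counted barcodes. They deposited these as raw counts without normalization, for 754 genes, 8 negative and 6 positive control probes, with no value under 1. The study names nSolver and does not state its normalization settings.

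Each sample was scaled to a gene total of 13334 counts, the mean of the 8, values under 1 were set to 1, and log2 ratios were taken. Ratios were counted at 1.5 (DS5 over NS) or 2 (between populations), the thresholds of the study. Each interval is the exact Clopper-Pearson 95% interval of one count as a share of the pair, moved to the scaled ratio. With 1 sample per group no test was run. Groups follow the labels.

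The genes named are the 5 members, all other S100, Anxa and Crip genes of the panel, the 3 genes most like each member, and genes of lists and cell type markers. The other genes named for the DS5 Ly6C-inter sample were chosen after their values were seen. Members and lists were chosen with earlier results of these data known. Of 754 gene names 744 matched RefSeq symbols, including all 5 members. One result from a gene list is not reported here. Alternatives changed the scaling, floor, pseudocount, background, filter and threshold. The interval code was tested on simulated data. The software was scipy 1.17.1, pandas 2.3.3, numpy 2.4.6 and matplotlib 3.10.9 under Python 3.11.15.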

Additional observations from a re-analysis of the deposited data

Results flagged for a closer look

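S100a11 went in opposite directions after stress in different populations. It was lower in DS5 in Ly6C-low cells (log2 ratio -0.73) and higher in the other 3 populations, and the ratios differed by 1.05 from MHCII+ cells, by 1.57 from monocytes and by 3.32 from Ly6C-inter cells on the log2 scale. Crip1 was at 0.15 in MHCII+ cells and -1.55 in Ly6C-inter cells, a difference of 1.71 that was 1.44 with reference genes, 0.67 with Ppia and Rpl19, 0.38 with positive controls and 0.066 without scaling. With 1 pooled sample per condition these differences were not tested. The directions in MHCII+ cells turned without scaling, so the first and the last of these 4 differences had opposite signs at equal totals and not without scaling.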

How the results depend on the processing

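No paired analysis was possible because each group has 1 sample and the labels carry no replicate numbers. The 4 ratios of DS5 over NS past 1.5 became 1 with a floor of 3 counts before scaling, 1 with all counts raised to the negative control limit, 2 among ratios whose higher count was above that limit, 2 at a threshold of 2, 2 among ratios whose interval excludes 0, and 2 without the Ly6C-inter comparisons, an alternative chosen after seeing the data. For MHCII+ cells against MHCII- populations in NS, the 7 became 3 among counts above the limit, 11 at a threshold of 1 and 4 without Ly6C-inter cells. In DS5 the 8 became 4, 14 and 3 under the same alternatives. Of single ratios past a threshold, S100a9 in DS5 over NS monocytes turned to -0.067 with counts raised to the limit, and S100a9 in NS MHCII+ cells over monocytes turned to 0.17 with positive controls. S100a11 in NS MHCII+ over Ly6C-low cells turned to 0.60 without scaling and 0.61 with positive controls. The 50 ratios of the 5 genes stayed within their counting intervals when no floor or a floor of 3 counts was used, with log2(scaled value + 1), or with totals taken without the 5 genes and Cd74. They lay outside these in 27 cases without scaling, 30 with positive controls, 18 with reference genes, 11 with Ppia and Rpl19, 22 with counts raised to the limit and 11 with the mean of the negative control probes subtracted. Counting ratios of any size, 13 had the opposite sign without scaling, 15 with positive controls, 5 with reference genes, 7 with counts raised to the limit, 2 with that mean subtracted and 1 with a floor of 3 counts. The cause was not tested. Depth limits S100a8 and S100a9 most, since a count under about 11.2 to 23.0 cannot be told from the negative control probes.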
